A study of Mus musculus with 4 samples.

Results

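The 9 genes described here encode transcription factors and cytokine receptor chains that set or serve the T helper lineages: Stat4, Il12rb1, Il12rb2 and Il18r1 of the Th1 lineage, Gata3 of the Th2 lineage, Foxp3 and Il2ra of regulatory T cells, and Il2rg and Il21r of the common gamma chain receptor family. They were taken by symbol from the 24346 genes listed, and each was found in every library. Liver of male wild-type C57BL/6 mice was measured by RNA sequencing after 3 weeks on a steatohepatitis-inducing diet (NASH diet) rich in fat, cholesterol and sucrose with bile salt. The control group (n = 2) received that diet alone, and the 7KC group (n = 2) received it with 7-ketocholesterol (7KC), an oxidized cholesterol. Both groups thus ate the steatohepatitis-inducing diet, and no library of mice on a standard diet is analysed here. The labels give each library a replicate number but not whether the libraries came from separate animals, so the p-values measure only the spread between these 4 libraries. The comparison asked how these regulators and receptors stood in the liver when 7KC was added to the diet.

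Naive CD4+ T cells take on a T helper lineage when cytokines engage receptors that signal through JAK kinases and STAT transcription factors. Interleukin-12 acts through Il12rb1 and Il12rb2 and STAT4 to promote the interferon-gamma program of Th1 cells, with Tbx21 (T-bet) as its lineage factor, whereas GATA3 directs Th2 cells and FOXP3 regulatory T cells. The same receptors also occur on natural killer (NK) and innate lymphoid cells, which are common in liver, and GATA3 also occurs in other cell types.

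Depth, estimated from the steps between low values, was 13650000 to 17100000 mapped reads, and FPKM (fragments scaled to exon length and to the mapped fragments in a library) is a level per transcript length. Of the genes listed, 12299 had a mean of at least 0.5 FPKM and were tested with limma on log2(FPKM + 0.5). Of these, 59 (0.48%) passed an adjusted p of 0.05 as higher in the 7KC group and 3 (0.0244%) as lower, and these counts moved to 404 and 54 without control replicate 1, to 48 and 5 without control replicate 2, to 4 and 1 when 7KC replicate 1 was left out and to 2 and 2 when 7KC replicate 2 was left out. The hepatocyte markers Alb, Ttr, Apoa1, Serpina1a and Tat identified the tissue, with summed levels of 48249 to 61618 FPKM in control and 31181 to 42807 FPKM with 7KC, and none of them passed the test. Ttr, Apoa1, Serpina1a and Tat, 4 of the 5, lay lower in both 7KC libraries than in both control libraries, and the median log2 difference of the 5 was −0.55. Alb (albumin) overlapped, at 41547 and 25203 FPKM in control and 26969 and 18988 FPKM with 7KC, lowest in 7KC replicate 2.

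Of the 9 genes, 6 lay higher in both 7KC libraries than in both control libraries, namely Stat4, Il12rb1, Il12rb2, Il18r1, Il2rg and Il21r, and the group means were 2.24 to 3.45 times as high in the 7KC group. The other 3, Gata3, Foxp3 and Il2ra, overlapped between groups. Over the 16858 genes above 0 in any library, 24.8% had both 7KC libraries above both control libraries and 22.2% had both below. No member passed the adjusted threshold of 0.05 (limma, Benjamini-Hochberg over all genes tested). The 6 that passed the filter on low values each had an unadjusted p under 0.05 (limma), and 4 had an adjusted p under 0.1. Of all genes tested, 12% had an unadjusted p under 0.05 in the higher and 5.81% in the lower direction. Stat4, with a control mean of 0.407 FPKM, was tested only because of its 7KC values, so the count of 6 is not read against these shares. In bulk tissue, more cells of a type and more mRNA per cell cannot be told apart, and this holds for each of the differences below.

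**Figure D1:**
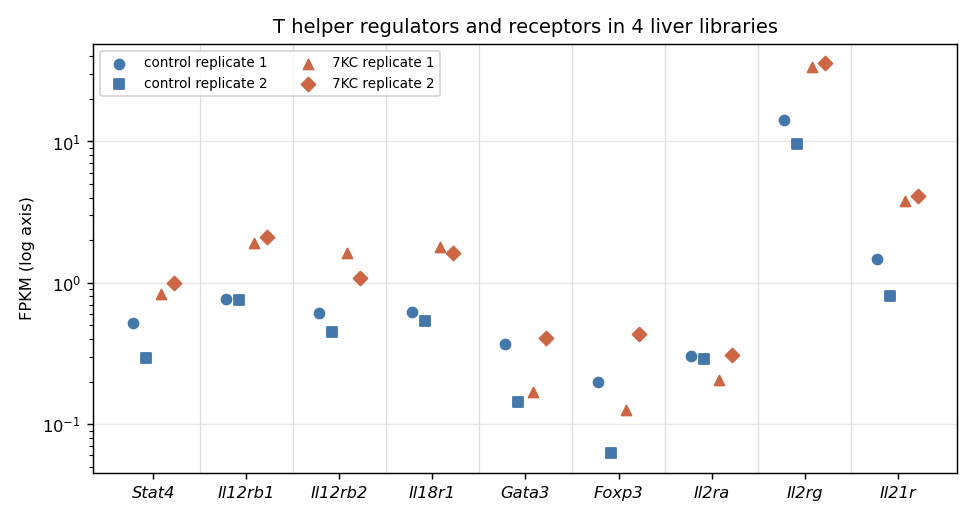
Levels of the 9 genes in each library, in FPKM on a logarithmic axis, for the control and 7KC groups, where a point is 1 library and its shape marks the replicate (n = 2 a group). Stat4, Il12rb1, Il12rb2, Il18r1, Il2rg and Il21r have both 7KC points above both control points, and Gata3, Foxp3 and Il2ra overlap.

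The promoters of the members are given as sequence because the receptors and factors described here are linked by STAT and interferon signaling, whose factors bind short sites near gene starts. RefSeq start sites of GRCm38.p6 were given for 8 of the members, and Il12rb1 had no entry. In the 250 bases before each start, both strands were searched for the interferon-gamma activated site (GAS, TTCNNNGAA), the core of the interferon-stimulated response element (ISRE, 2 runs of GAAA with 2 free bases between them) and the AP-1 site (TGANTCA), which occur in 7.02%, 2.98% and 6.75% of all 32851 promoter windows. The windows of Stat4 and Il12rb2 that held a match, and that of Il2rg, the most abundant member, are shown because they cover no annotated exon. Each is written 5′ to 3′ on the strand of the gene, with the match in capitals, an ISRE core for Stat4 and a GAS for Il12rb2, and Il2rg held no match. The Stat4 window lies at chr1:52007990-52008239 on the plus strand, before the second annotated start. That of Il12rb2 lies at chr6:67376189-67376438 and that of Il2rg at chrX:101268256-101268505, both on the minus strand.
Stat4: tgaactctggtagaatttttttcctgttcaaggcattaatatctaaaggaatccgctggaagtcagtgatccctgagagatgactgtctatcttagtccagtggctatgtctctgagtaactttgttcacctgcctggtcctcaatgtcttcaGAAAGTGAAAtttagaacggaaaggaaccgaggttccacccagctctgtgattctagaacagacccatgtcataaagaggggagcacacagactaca
Il12rb2: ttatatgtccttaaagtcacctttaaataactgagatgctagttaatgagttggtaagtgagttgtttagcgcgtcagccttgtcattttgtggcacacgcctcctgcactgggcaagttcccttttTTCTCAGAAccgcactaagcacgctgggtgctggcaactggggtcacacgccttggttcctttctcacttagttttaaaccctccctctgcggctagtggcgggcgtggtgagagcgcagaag
Il2rg: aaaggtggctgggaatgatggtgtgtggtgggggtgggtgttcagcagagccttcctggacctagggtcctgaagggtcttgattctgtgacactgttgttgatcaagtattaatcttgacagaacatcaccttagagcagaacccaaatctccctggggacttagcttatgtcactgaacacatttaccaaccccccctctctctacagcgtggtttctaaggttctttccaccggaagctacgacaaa
A GAS was also matched in a window of Il18r1 and in a window of Foxp3 that overlap annotated exons. The windows of Gata3, Il2ra and Il21r held none of the 3 motifs, and a match is a description of the letters only.

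Of the interleukin-12 pathway, both receptor chains lay higher in the 7KC libraries. Il12rb1 (chromosome 8, 70808449 to 70821424, plus strand), the chain shared by the interleukin-12 and interleukin-23 receptors, was at 0.762 and 0.757 FPKM in control replicates 1 and 2 and at 1.91 and 2.11 FPKM in 7KC replicates 1 and 2. The control libraries nearly coincided and both 7KC libraries stood well above them. The levels rest on about 35, 28, 70 and 78 reads in the 4 libraries. Counting error in the lowest corresponds to a coefficient of variation of 18.9%, so the closeness of the control libraries is no measure of precision. The mean level was 0.760 ± 0.00416 FPKM in control and 2.01 ± 0.143 FPKM with 7KC (SD, n = 2), 2.64 times as high, a log2 difference of 0.99 (SE 0.16, limma adjusted p = 0.0679).

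Il12rb2 (chromosome 6, 67291318 to 67376188, minus strand), the chain that is specific to interleukin-12 and is induced in Th1 cells, was at 0.614 and 0.447 FPKM in control and 1.62 and 1.08 FPKM with 7KC. The spread between the 7KC libraries was wider than for Il12rb1, and the groups did not overlap. These values rest on about 29, 17, 62 and 42 reads. The mean was 2.54 times as high, with a log2 difference of 0.83 (SE 0.23, limma adjusted p = 0.168). Of its 3794 exon bases, 1519 overlap Serbp1 on the opposite strand. Serbp1, an mRNA-binding protein gene, was far more abundant, at 25.8 and 30.1 FPKM in control and 25.5 and 23.8 FPKM with 7KC. Its levels did not stand higher in the 7KC group, and whether the counting used strand is not given in the sources used here.

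Stat4 (chromosome 1, 51987148 to 52107189, plus strand), the transcription factor that interleukin-12 activates, was at 0.520 and 0.294 FPKM in control and 0.828 and 0.999 FPKM with 7KC. Both 7KC libraries lay above the higher control library. The mean was 2.24 times as high, and the log2 difference of 0.65 (SE 0.23, 95% interval 0.08 to 1.22, limma adjusted p = 0.240) was the smallest of the 6. Its control mean of 0.407 FPKM lay under the filter, so that Stat4 was tested only because of its 7KC values, and its levels rest on about 25, 11, 31 and 38 reads in the 4 libraries. Of its 3872 exon bases, 1033 also belong to Gm28177 on the same strand.

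Il18r1 (chromosome 1, 40465552 to 40500854, plus strand), the ligand-binding chain of the interleukin-18 receptor on Th1 and NK cells, was at 0.619 and 0.539 FPKM in control and 1.78 and 1.64 FPKM with 7KC. The 2 libraries of each group were close, and the groups were well apart. About 42, 29, 96 and 89 reads lie behind these values, with a counting coefficient of variation of 18.4% in the lowest library. The mean was 2.95 times as high, a log2 difference of 1.03 (SE 0.17, limma adjusted p = 0.0704). The gene lies in a cluster of interleukin-1 receptor family genes, 136 bases after the end of Il1rl1 and 14507 bases before Il18rap. Il18rap, the signaling chain of the same receptor, was at 0.545 and 0.307 FPKM in control and 1.27 and 1.15 FPKM with 7KC, a log2 difference of 0.90 (SE 0.22, limma adjusted p = 0.132). Its control mean of 0.426 FPKM lay under the filter, so that Il18rap was tested only because of its 7KC values. Il1rl1, the interleukin-33 receptor of Th2 cells and type 2 innate lymphoid cells (ILC2), was at 0.102 and 0.0706 FPKM in control and 0.584 and 0.399 FPKM with 7KC, under the filter and not tested.

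The ligands of these receptors showed smaller differences. Il18, at 17.0 and 16.1 FPKM in control and 18.2 and 19.9 FPKM with 7KC, differed by 0.20 on the log2 scale (SE 0.11, limma adjusted p = 0.409). Il12a, which encodes the p35 subunit of interleukin-12, was at 0.273 and 0.135 FPKM in control and 0.341 and 0.395 FPKM with 7KC, and was not tested. Il12b, the p40 subunit shared with interleukin-23, was at 0.278 and 0.0941 FPKM against 0.316 and 0.251 FPKM, with overlap between the groups, and was not tested either.

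Downstream of these receptors, the Th1 cytokine and the Th1 lineage factor lay higher as well. Ifng, the defining Th1 cytokine, was at 0.408 and 0.362 FPKM in control and 2.99 and 1.38 FPKM with 7KC (log2 difference 1.53, SE 0.32, limma adjusted p = 0.104). Tbx21 was at 0.718 and 0.276 FPKM in control and 1.49 and 1.01 FPKM with 7KC (log2 difference 0.83, SE 0.29, limma adjusted p = 0.241). Both lay higher without overlap and did not pass the test. Their control means, 0.385 FPKM for Ifng and 0.497 FPKM for Tbx21, lay under the filter, so both were tested only because of their 7KC values. The kinases of the interleukin-12 receptor differed less, Jak2 with 6.64 and 5.41 against 9.14 and 9.12 FPKM (log2 difference 0.57, SE 0.14, limma adjusted p = 0.132) and Tyk2 with 7.12 and 6.18 against 8.08 and 9.18 FPKM (log2 difference 0.35, SE 0.14, limma adjusted p = 0.270).

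Il2rg and Il21r were the most abundant members and had the largest differences in log2(FPKM + 0.5), a scale that understates the change of low genes. By the ratio of the means, Il18r1, at 2.95, stood slightly above Il2rg, at 2.91. Il2rg (chromosome X, 101264378 to 101268255, minus strand), the common gamma chain used by the receptors for interleukins 2, 4, 7, 9, 15 and 21, was at 14.1 and 9.57 FPKM in control and 33.5 and 35.6 FPKM with 7KC. With about 194 to 723 reads a library it was the most precisely counted member, and the 7KC libraries differed by less than the control libraries did. The mean was 11.9 ± 3.24 FPKM in control and 34.6 ± 1.51 FPKM with 7KC (SD, n = 2), 2.91 times as high, and the log2 difference of 1.53 (SE 0.20, 95% interval 1.03 to 2.03) had the lowest adjusted p of the members (limma, 0.0523). Without control replicate 1, its adjusted p was 0.0124, and over all alternatives it ranged from 0.0124 to 0.321. Of its 2387 exon bases, 728 also belong to Gm20489 on the same strand.

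Il21r (chromosome 7, 125603429 to 125633570, plus strand), the interleukin-21 receptor chain that pairs with the common gamma chain, was at 1.48 and 0.810 FPKM in control and 3.81 and 4.09 FPKM with 7KC. The lower 7KC library stood well above the higher control library. The mean was 3.45 times as high, the largest ratio among the members, with a log2 difference of 1.47 (SE 0.23, 95% interval 0.88 to 2.05, limma adjusted p = 0.0621). It also passed the threshold without control replicate 1 (limma adjusted p = 0.0182, range over the alternatives 0.0182 to 0.367). Its ligand gene Il21 was listed at 0.0201 and 0.0250 FPKM in control and 0.428 and 0.125 FPKM with 7KC, and was not tested.

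Il2rb, the beta chain that joins the common gamma chain in the receptors for interleukin-2 and interleukin-15, passed the test. It rose from 3.20 and 2.95 FPKM in control to 7.35 and 7.21 FPKM with 7KC, a log2 difference of 1.12 (SE 0.12, limma adjusted p = 0.0423). Its limma adjusted p was 0.0937 with control replicate 2 left out, 0.154 with 7KC replicate 1 left out and 0.272 with 7KC replicate 2 left out, and ran from 0.0223 to 0.272 over all alternatives. Jak3, the kinase bound to the common gamma chain, was at 4.42 and 4.41 FPKM in control and 6.72 and 7.51 FPKM with 7KC (log2 difference 0.63, SE 0.12, limma adjusted p = 0.0934), and Jak1, at 28.3 and 30.1 against 26.5 and 31.2 FPKM, overlapped. Il15 was at 1.09 and 1.49 FPKM in control and 1.89 and 2.58 FPKM with 7KC (log2 difference 0.61, SE 0.21, limma adjusted p = 0.235). Il7r overlapped, at 1.14 and 0.887 FPKM against 0.894 and 1.92 FPKM, and Il2 was listed at 0 in all 4 libraries.

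**Figure D2:**
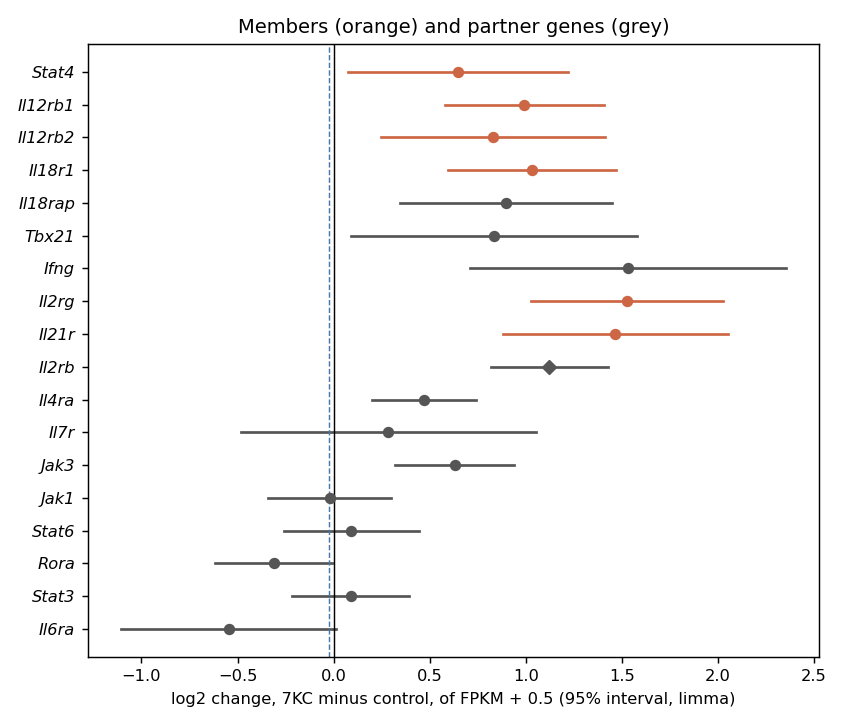
Log2 difference (7KC minus control, log2(FPKM + 0.5) scale) of each tested member, in orange, and of other list genes, in grey, with 95% confidence intervals from limma. The grey genes are receptor and signaling partners of the members, with Tbx21 and Ifng of the Th1 list and Rora, Stat3 and Il6ra of the Th17 list. They are a selection and do not stand for their lists. Of the 13 tested Th17 genes, 4 were higher without overlap, Batf at 1.60 among them, and 3 were lower, and the 4 are not drawn. Il18 of the Th1 list, at 0.20, is not drawn either. Diamonds mark an adjusted p under 0.05, which Il2rb has, and the blue dashed line is the median of all genes tested, −0.03. Stat4, Il18rap, Tbx21 and Ifng had a control mean under the filter and were tested only because of their 7KC values.

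Gata3, Foxp3 and Il2ra had low levels in all 4 libraries and were not tested, since their means lay under the filter of 0.5 FPKM. Gata3 (chromosome 2, 9857078 to 9890034, minus strand), the Th2 factor, was at 0.367 and 0.144 FPKM in control and 0.169 and 0.407 FPKM with 7KC. The higher library of each group stood above the lower of the other, and the ratio of the means was 1.13, with a log2 difference of 0.06. It was −0.16 without 7KC replicate 2 and 0.28 without 7KC replicate 1, so its sign turned with single libraries, and it was −0.07 under quantile normalization.

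Foxp3 (chromosome X, 7573644 to 7595245, plus strand), the factor that defines regulatory T cells, was at 0.1999 and 0.0620 FPKM in control and 0.125 and 0.434 FPKM with 7KC. Its level rests on about 12, 3, 6 and 22 reads, and counting error in the lowest library corresponds to a coefficient of variation of 56.7%. The group means stood at a ratio of 2.14, and the log2 difference was 0.29, or 0.65 with a pseudocount of 0.1 FPKM, and −0.01 without 7KC replicate 2. Of its 4577 exon bases, 853 also belong to Flicr on the same strand. On the opposite strand, 590 overlap Ccdc22, at 5.28 to 7.39 FPKM, 373 overlap Gm36995 and 266 overlap Ppp1r3f.

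Il2ra (chromosome 2, 11642807 to 11693193, plus strand), the alpha chain that gives the interleukin-2 receptor its high affinity and is abundant on regulatory and activated T cells, was at 0.302 and 0.290 FPKM in control and 0.206 and 0.307 FPKM with 7KC. It was the member with the least spread across all libraries among these 3. The ratio of the means was 0.867 and the log2 difference −0.08, or 0.02 without 7KC replicate 1. Il2ra thus overlapped between groups where its partner chains Il2rb and Il2rg did not. At 12 to 22 reads a library, a difference within the counting error of Il2ra, a coefficient of variation of 29.0% in the lowest library, was not detectable.

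In the control group the levels per length ran from Il2rg through Il21r, Il12rb1, Il18r1, Il12rb2, Stat4, Il2ra and Gata3 to Foxp3, and from Il18r1 downward each gene overlapped its neighbour in the order. In the 7KC group the first 6 genes stood in this same order, with no overlap between neighbours, and Gata3, Foxp3 and Il2ra at the low end overlapped each other.

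Markers of T cells and NK cells were also higher in the 7KC libraries. All 12 T cell markers, Cd3e, Cd3d, Cd3g and Cd4 among them, had both 7KC libraries above both control libraries, and their summed level was 14.9 to 23.1 FPKM in the control group and 51.1 to 52.0 FPKM in the 7KC group. Cd247, the zeta chain of the T cell receptor complex, rose from 0.590 and 0.586 FPKM to 2.41 and 2.61 FPKM (log2 difference 1.47, SE 0.16, limma adjusted p = 0.0451), with an adjusted p of 0.0867 with control replicate 2 left out, 0.153 with 7KC replicate 1 left out, 0.280 with 7KC replicate 2 left out and 0.0264 to 0.280 over all alternatives. All 9 markers of NK cells and type 1 innate lymphoid cells (ILC1) lay higher too, with summed levels of 8.94 to 11.99 FPKM and 24.7 to 33.1 FPKM. None of these markers was at 0 in any library. Of the other immune lists, 4 of 7 macrophage, 4 of 7 dendritic cell, 2 of 6 B cell and 2 of 4 listed neutrophil markers were higher without overlap, and the macrophage marker Vsig4 was lower. Of the ILC2 and mast cell markers, 3 of 7 were higher, Rora was lower and Mcpt4 was listed at 0 throughout. Of the endothelial, cholangiocyte and stellate cell markers, 0 of 5, 1 of 4 and 0 of 4 were higher, and Krt19 of the cholangiocyte and Reln of the stellate cell markers were lower. The shares over all genes above 0 were 24.8% higher and 22.2% lower.

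The level of each member was set against the summed T cell markers of the same library, a ratio that a single scaling factor per library leaves as it is. Il12rb1, Il12rb2, Il18r1 and Foxp3 overlapped between groups on this measure, with 7KC to control ratios of 0.930, 0.922, 1.05 and 0.850. Il2rg was at 61.3% and 64.2% of the marker sum in the control libraries and at 64.4% and 69.7% in the 7KC libraries, a ratio of 1.07. Il21r was at 6.40% and 5.44% in the control libraries and at 7.34% and 7.997% in the 7KC libraries, a ratio of 1.30. Both thus had 7KC libraries above control libraries on this measure, but for Il2rg the closest values, 64.2% and 64.4%, were nearly equal. Set against Cd3d, Cd3e and Cd3g alone, Il21r was again higher without overlap and Il2rg overlapped. Both overlapped when set against the NK cell and ILC1 markers.

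Il2ra stood apart in the other direction. It was at 1.31% and 1.95% of the T cell marker sum in the control libraries and at 0.397% and 0.601% in the 7KC libraries, a ratio of 0.307, and it was also lower without overlap against the NK cell and ILC1 markers and against Cd3d, Cd3e and Cd3g. Gata3 was at 1.59% and 0.964% against 0.325% and 0.797%, a ratio of 0.440, and was also lower against Cd3d, Cd3e and Cd3g, but it overlapped against the NK cell and ILC1 markers. Stat4 was at 2.26% and 1.97% against 1.59% and 1.95%, a ratio of 0.839 with the closest values nearly equal, and it overlapped against both other marker sums. These ratios are descriptions of 2 libraries a group, at about 12 to 22 reads for Il2ra and 6 to 19 for Gata3, and the part of cell numbers in the member levels was not tested.

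**Figure D3:**
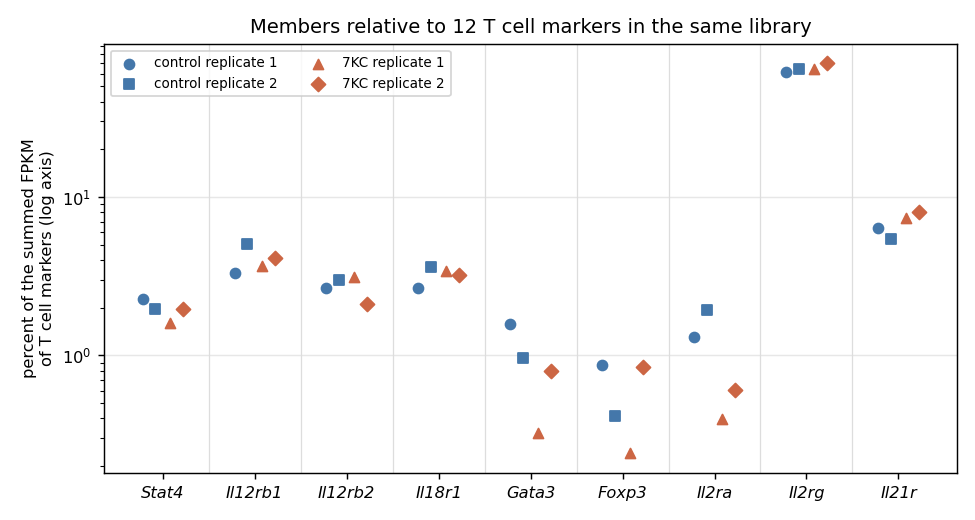
Level of each member as a percentage of the summed FPKM of 12 T cell markers in the same library, on a logarithmic axis, with 1 point a library and both groups side by side. Il2ra and Gata3 have both 7KC points below both control points by the widest margins, and Il12rb1, Il12rb2, Il18r1 and Foxp3 overlap.

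The wider T helper lists held 96 distinct genes, of which 88 were above 0 in at least 1 library and 63 were tested. Of the 88, 51 had both 7KC libraries above both control libraries and 7 had both below. Over all genes above 0, 24.8% were above and 22.2% below, and the list counts below stand beside these shares. The median log2 difference was 0.31 over these 88 genes and 0.30 over the 79 that were not members, beside 0.00033 over all genes above 0. Among those tested, 42 were above and 5 below, where all tested genes gave 25.1% above and 27.4% below, but 9 of those tested had a control mean under the filter, so that count is not read against the share. Il2rb was among the genes past the adjusted threshold. Of all genes tested, 12% had an unadjusted p under 0.05 (limma) as higher and 5.81% as lower, and list counts of such genes carry the same limit.

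The Th1 list had the highest median of the 6 lists. Of its 24 genes, 23 were higher in both 7KC libraries, Il12b being the exception, and the median log2 difference was 0.77. Of the 21 tested, 4 (Tbx21, Stat4, Ifng and Il18rap) had a control mean under the filter, and 16 had an unadjusted p under 0.05.

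Of the 16 Th2 genes above 0, 7 were higher in both 7KC libraries and 1, Il4, lay lower, with a median of 0.10. Of 8 tested, none passed the threshold and 3 had an unadjusted p under 0.05. Il4, the defining Th2 cytokine, was at 0.305 and 0.553 FPKM in control and 0.195 FPKM in 7KC replicate 1, and was listed at 0 in 7KC replicate 2. Il5, Il13, Il9 and Il25 were listed at 0 in all 4 libraries. Il4ra, the interleukin-4 receptor alpha chain that pairs with the common gamma chain, was at 8.61 and 8.33 FPKM in control and 12.003 and 11.9 FPKM with 7KC (log2 difference 0.47, SE 0.11, limma adjusted p = 0.119), and Stat6, its transcription factor, overlapped, with a log2 difference of 0.09.

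Of the 20 Th17 genes above 0, 6 were higher and 4 were lower in both 7KC libraries, near the shares of 24.8% and 22.2% over all genes above 0. The median was 0.10, and of 13 tested genes none was past the threshold, with an unadjusted p under 0.05 for 4 in the higher and 1 in the lower direction. Rora, a retinoid-related orphan receptor gene that hepatocytes are also known to express, was at 8.78 and 8.75 FPKM in control and 6.55 and 7.41 FPKM with 7KC, a log2 difference of −0.31 (SE 0.12, limma adjusted p = 0.273). Il17f and Il22 were listed at 0 throughout, Il17a was listed above 0 only in control replicate 2, at 0.0751 FPKM, and Il23a was at 0.202 and 0.125 against 0.0633 FPKM in 7KC replicate 1, listed at 0 in 7KC replicate 2. Il23r, which pairs with Il12rb1, was at 0.0255 and 0.0316 FPKM against 0.0637 and 0.221 FPKM, and Stat3 overlapped, with a log2 difference of 0.09. Batf, a factor used by several T helper lineages, was at 2.27 and 1.56 FPKM in control and 8.09 and 5.63 FPKM with 7KC (log2 difference 1.60, SE 0.23, limma adjusted p = 0.0596).

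Of the 18 regulatory T cell genes above 0, 10 were higher and 2 were lower in both 7KC libraries, with a median of 0.44. Of the 12 tested, Tnfrsf4 and Izumo1r had a control mean under the filter. Il2rb passed the threshold and is carried by NK and effector T cells as well, and 6 genes had an unadjusted p under 0.05. Ctla4, an inhibitory receptor of regulatory and activated T cells, was at 0.270 and 0.251 FPKM in control and 0.585 and 0.715 FPKM with 7KC, whereas Ikzf2, at 0.176 and 0.125 against 0.149 and 0.258 FPKM, and Il10, at 0.159 and 0.0658 against 0.133 and 0.263 FPKM, overlapped as Foxp3 did. None of the 3 was tested.

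The common gamma chain list had 7 of 14 genes above 0 higher and 1 lower, with a median of 0.38, and of 10 tested genes, 1 of them with a control mean under the filter, Il2rb passed the threshold and 6 had an unadjusted p under 0.05. The follicular helper list had 5 of 7 higher, with a median of 0.54. Of the 5 tested, Pdcd1 and Sh2d1a had a control mean under the filter, none passed the threshold and 3 had an unadjusted p under 0.05. Its lineage factor Bcl6, which hepatocytes also express, did not follow the groups, at 30.1 and 10.5 FPKM in control and 9.27 and 27.7 FPKM with 7KC. The lists share 12 genes, so these counts are not independent of each other.

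**Figure D4:**
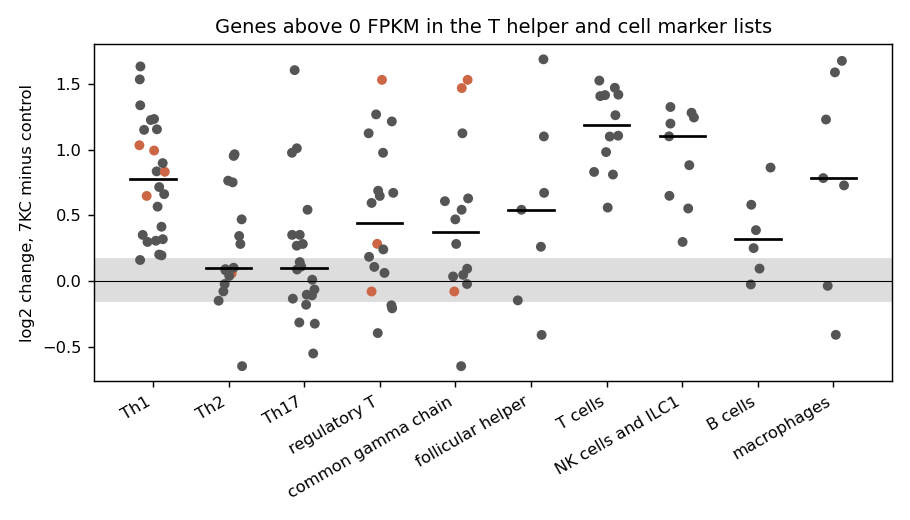
Log2 difference (7KC minus control) of each gene above 0 FPKM in any library of the T helper lists and of the T cell, NK cell and ILC1, B cell and macrophage marker lists, 1 point a gene with the members in orange and the list median as a black line. The grey band is the middle 50% of all genes above 0, −0.15 to 0.17, and the Th1 points lie above 0 throughout while the Th2 and Th17 medians lie inside the band.

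How values were scaled between libraries moved all genes together. Of the tested genes without overlap, 47.8% lay higher in the 7KC group on the deposited FPKM, 54.4% after median-ratio scaling, 38.2% after quantile normalization and 85.5% after rescaling to equal sums, where the all-gene median was 0.17. The 6 tested members lay higher in both 7KC libraries under each of these scalings. After rescaling to equal sums, Il2rg, Il21r, Il12rb1 and Il18r1 passed the threshold (limma adjusted p = 0.0223, 0.0380, 0.0481 and 0.0449), and over all alternatives the adjusted p of Il12rb1 ran from 0.0481 to 0.374 and that of Il18r1 from 0.0449 to 0.342.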

How the data were processed

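Gene-level FPKM values of 4 liver libraries (control, n = 2; 7KC, n = 2) were used as deposited by the authors. The authors used a stranded mRNA kit, sequenced single-end reads, mapped these to mm10 with TopHat and Bowtie2 and computed FPKM with Cufflinks. The submitters' processing notes name TopHat2 2.1.1, Bowtie2 2.2.8, SAMtools 0.1.18 and Cuffdiff 2.2.1, and the versions in the study's methods differ. The annotation and the settings for strand and for reads with several matches are not given in the sources used here. Since FPKM divides by all reads mapped in a library, abundant transcripts that differ move all other genes.

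Samples were grouped by their titles. The 12299 genes that averaged 0.5 FPKM or more were compared as log2(FPKM + 0.5), which understates the change of low genes, with limma 3.58.1 in R 4.3.3 (lmFit, eBayes with trend, group only, 2 residual and 3.27 prior degrees of freedom). Adjustment followed Benjamini-Hochberg over all genes tested, with a threshold of 0.05. An exact permutation test of 2 against 2 libraries cannot go below a 2-sided p of 0.333 and was not used. The fit was tested on simulated data with log2 differences larger than those of the members, so that test does not cover differences of their size. No overlap means that both libraries of a group lie on the same side of both libraries of the other. Median log2 differences of lists are over genes above 0 in any library, tested or not. Depth and read numbers were estimated from the steps of low FPKM values of single-transcript genes, of which 74.1% to 75.9% were whole reads to a tolerance of 0.1 (20% by chance), and were used only to describe precision, which covers counting error only. Positions are those of GENCODE M21 and promoter sequences those of RefSeq, both on GRCm38.

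The members and gene lists were chosen with earlier results of these data known. All members were named, with the lineage-defining genes, partner chains and ligands of the lists and any list gene past the threshold, apart from genes that are not reported here. Alternatives were the pseudocount, the filter, the scaling, the prior variance, the replicate block and leaving out each library. Replicate numbers did not pair the libraries (correlation of deviations −0.14).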

Additional observations from a re-analysis of the deposited data

How the results depend on the processing

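The 6 members without overlap stayed above control under every scaling. The pseudocount and the filter cannot change this count, and leaving out 1 library can only keep or raise it. With 1 library left out, 6 to 9 members, tested or not, stood above control. Of the genes tested, 33.5% to 37.6% did, beside 25.1% with all libraries, so the count and these shares cover unlike sets of genes. The list genes without overlap numbered 36 to 51 over all alternatives, beside 42, and both ends came from filters that change which genes are counted. The number of genes past the threshold was less stable. Beside 59 higher and 3 lower genes, a pseudocount of 1 FPKM gave 111 higher, no filter 0 higher and 1 lower, median-ratio scaling 122 higher, equal sums 402 higher and 7 lower, and no trend 39 higher and 1 lower. Leaving out 1 library gave 2 to 404 higher and 1 to 54 lower genes. Unadjusted p under 0.05 was found for 1792 higher and 842 lower genes without the filter. The cause was not tested. Beside 0 members past the threshold, a pseudocount of 1 FPKM and median-ratio scaling gave 1 each (Il2rg), equal sums gave 4, and leaving out 1 library 0 to 2, the 2 being Il2rg and Il21r without control replicate 1. Il2rb and Cd247 lost their calls without the filter, under quantile normalization and without control replicate 2 or either 7KC library, Il2rb also with no trend and Cd247 also with a filter of 1 FPKM.

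With a replicate block, 0 genes were higher and 0 lower (limma; 1269 and 582 at an unadjusted p under 0.05), Il2rb had an adjusted p of 0.184 and Cd247 of 0.193, but the libraries share only a number. A crossed replicate block, added after seeing the data, gave 551 higher and 37 lower genes, 2 of them members.

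Stat4 and Il12rb2 averaged under 1 FPKM and gave no value under that filter. At 3 to 22 reads a library, Gata3, Foxp3 and Il2ra were limited by counting.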

Other observations

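The 5 genes whose values over the 4 libraries lay closest to the mean of the 6 tested members, by Euclidean distance of centred log2(FPKM + 0.5) values, were Sh2d2a, Elf3, Cxcr6, Cd69 and Il1rn. Sh2d2a, an adaptor protein of activated T cells, was nearest, at 0.653 and 0.445 FPKM in control and 1.70 and 1.73 FPKM with 7KC, a distance of 0.026 in log2 units. Cxcr6, a chemokine receptor of liver-resident lymphocytes, was at 2.04 and 1.497 FPKM against 4.49 and 4.37 FPKM, and Cd69, an early activation marker, at 1.03 and 0.766 against 2.37 and 2.30 FPKM. Elf3, an epithelial transcription factor, was at 0.637 and 0.458 against 1.76 and 1.69 FPKM, and Il1rn, the interleukin-1 receptor antagonist, at 7.55 and 5.81 against 13.9 and 14.1 FPKM. None of the 5 passed the threshold, with limma adjusted p-values of 0.0605 to 0.0744, and likeness over 4 libraries of 2 groups is a description of this contrast.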
